A study of Rattus norvegicus with 2 samples.

Results

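The choroid plexus genes described here are 10 genes that are typical of the epithelium secreting the cerebrospinal fluid: Ttr, Enpp2, Lbp, Prlr, Kl, Folr1, Aqp1, Clic6, Cldn2 and Otx2. Their members were all rat features of the arrays whose gene name in the array files is 1 of these symbols. That gave 11 probes and 29 spots out of 30367 rat probes and 42877 rat spots, and 10 genes out of 18823 with a symbol. All 10 genes had a probe well above background on both arrays, whereas 1 of the 11 probes, the first of 2 for Cldn2, did not.

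The samples were made from the nucleus tractus solitarius (NTS), the brainstem nucleus that receives baroreceptor and other visceral input, of Wistar Kyoto rats, a normotensive strain. The male pool held RNA of 5 males and the female pool RNA of 5 females, all aged 9 weeks, with 100 ng from each rat. No treatment distinguished the groups, and a single operator dissected every rat. There was 1 single-colour array per pool, both on the same slide and in the same scan, so no difference has a replicate check, no test was possible, and the spread between rats is not seen. A level is the log2 processed signal relative to the 75th percentile of the rat spots of its array, and a difference is the female level minus the male level.

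The choroid plexus is a folded epithelium on a vascular stroma that hangs into the brain ventricles, and the plexus of the fourth ventricle lies above the dorsal medulla where the NTS is found. Its cells secrete fluid through ion pumps, carbonic anhydrases and the water channel aquaporin 1, and they release carrier proteins such as transthyretin into that fluid. Their tight junctions contain claudin 2, which lets cations and water pass, and the homeobox factor Otx2 is needed for the tissue to form. Several of these genes are used elsewhere too: Enpp2 by oligodendrocytes, Aqp1 by red blood cells and endothelium outside the brain, Prlr and Kl by some neurons.

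The male array had 85.5% of its rat spots well above background, the female array had 87.9%, and 0 were saturated. Markers of NTS neurons were present: 14 of 15 listed genes were counted. Their differences ran from -0.19 to 0.62 with a median of 0.031. The largest was that of Prlh, the gene of prolactin-releasing peptide, which read 14828 with the male pool and 22425 with the female pool. Calcr, the calcitonin receptor gene, gave 0.24, the neuropeptide gene Cartpt -0.19 and the proglucagon gene Gcg -0.19. Th, the rate-limiting enzyme of catecholamine synthesis and a defining marker chosen after its value was seen, differed by 0.026.

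The probes are 60 bases long, and the sequences below are those behind the results that follow: both Cldn2 probes, the Lbp probe, the Ttr probe, and the probes of Aqp1 and Prlr, which were each spotted 10 times. Sequences are given 5′ to 3′ as in the array files; the first Cldn2 probe and the Prlr probe are whole, and of the others 30 bases are shown. Capitals in the Ttr probe mark the hexamer ATTAAA, a polyadenylation signal variant, which begins at base 38 of that probe; on either strand it was in no other member probe and in 4.99% of all rat probes.
Cldn2, probe starting at transcript base 804: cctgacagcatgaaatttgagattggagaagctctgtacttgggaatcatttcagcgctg
Cldn2, probe starting at transcript base 2320: ttcagtgtggaacatcttttgaccaaggtg
Lbp, probe starting at transcript base 1522: ccagatgcgtagcacatctccagagagtct
Ttr, probe starting at transcript base 638: tgaaacgttcttATTAAAccacctttattt
Aqp1, probe starting at transcript base 2225: ccactggcatagtacagctgcatactcttc
Prlr, probe starting at transcript base 851: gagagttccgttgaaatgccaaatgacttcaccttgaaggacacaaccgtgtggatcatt

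On the rat build rn4, which the array files use, the Cldn2 probes lie on chromosome X at 127546789 to 127546848 and at 127548305 to 127548364. The Lbp probe lies on chromosome 3 at 149043196 to 149043255, the Ttr probe on chromosome 18 at 12413621 to 12413680 and the Aqp1 probe on chromosome 4 at 84110125 to 84110184. The Prlr probe spans 505 bases of chromosome 2, from 59677666 to 59678170, and the Enpp2 probe 5394 bases of chromosome 7, from 91296429 to 91301822. The Kl probe lies on chromosome 12 at 3732717 to 3732776, the Folr1 probe on chromosome 1 at 159315267 to 159315326, the Clic6 probe on chromosome 11 at 32558944 to 32559003 and the Otx2 probe on chromosome 15 at 24623454 to 24623513. In those of Prlr and Enpp2, the 60 probe bases are spread over a longer stretch of the genome. The exon or untranslated region of each probe was not assigned, since no annotation of rn4 was used.

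All 10 genes had a lower level in the female pool than in the male pool relative to the 75th percentile, but 8 of the 10 turned to the female side when the arrays were scaled by their spots for spike-in control RNA. The share of all 15560 counted genes that were higher in the male pool by any amount was 54.3%. The median difference of the 10 genes was -0.24, against -0.014 for all counted genes. The differences ran from -1.84 for Cldn2 to -0.0076 for Prlr. Only Cldn2 was 2-fold or more apart, against 0.424% of all counted genes past 2-fold in that direction. Aqp1, Lbp and Cldn2 were 1.5-fold or more higher in the male pool, where 1.57% of all counted genes lay; none was 1.5-fold or more higher in females, where 0.893% lay. Fewer plexus cells in the dissected tissue, less RNA per cell, scaling, labelling and variation between rats cannot be told apart in such samples. The cause of the differences was not tested.

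**Figure D1:**
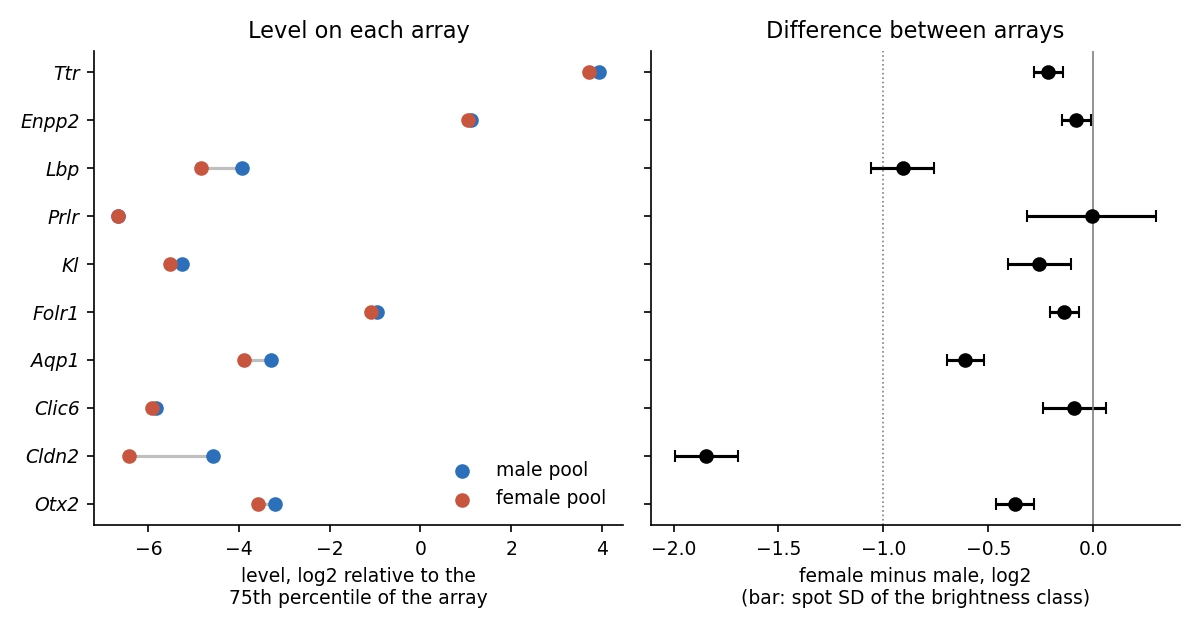
The left panel plots the level of each choroid plexus gene on the male and the female array, as log2 relative to the 75th percentile of that array; the right panel plots the female minus male difference with a bar of 1 spot SD, taken from repeated probes of like brightness. All 10 points of the right panel lie at or left of 0, from -1.84 to -0.0076, and under spike-in scaling 8 of them lie right of 0; levels of different genes have no order, since probes differ in brightness.

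Technical error was read from probes that are spotted repeatedly, as the spread of the difference over their spots. This spot SD was 0.31 among genes over 64-fold below the 75th percentile, 0.15 at 16 to 64-fold below, 0.089 at 4 to 16-fold below and 0.069 among brighter genes. By this measure 8 of the 10 genes were higher in the male pool by more than 1 spot SD, where 27.8% of all counted genes were, and none was higher in the female pool by that much, where 20.3% were. The 2 genes inside 1 spot SD were Clic6 and Prlr. The spot SD covers neither the rats nor the labelling.

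Among the secreted proteins, Lbp differed most. Lbp encodes lipopolysaccharide-binding protein, which carries bacterial lipopolysaccharide to immune receptors. Its single spot read 227 with the male pool and 119 with the female pool, a difference of -0.91 or 1.88-fold, against a spot SD of 0.15. Of the 2836 counted genes in its brightness class, 27, Lbp included, had a difference as low or lower, which is 0.952%. Lbp remained on the male side, at -0.24, with spike-in scaling.

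Transthyretin, the Ttr product, carries thyroxine and retinol-binding protein and is a hallmark of plexus epithelium. Its spot read 52815 with the male pool and 44706 with the female pool, so the difference was -0.21 where the spot SD was 0.069. Of the genes in its brightness class, 5.44% had a difference as low or lower. Ttr gave 0.46 with spike-in scaling.

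Enpp2 encodes autotaxin, the secreted enzyme that makes lysophosphatidic acid. Its spot read 7502 with the male pool and 6968 with the female pool. The difference of -0.081 was close to the spot SD of 0.069, and 25.5% of the genes in its class had one as low or lower.

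The receptor genes lay within 2 spot SDs of 0. Klotho, the Kl product, is the co-receptor through which fibroblast growth factor 23 acts. Its spot read 89.6 with the male pool and 73.6 with the female pool, differing by -0.26 against a spot SD of 0.15. Folr1, the folate receptor that moves folate from blood into cerebrospinal fluid, read 1784 with the male and 1593 with the female pool, a difference of -0.14 against 0.069. Among genes of like brightness, 12.2% were as low as Kl and 13.0% as low as Folr1.

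Prlr, the prolactin receptor gene, is the member whose 10 spots overlapped between the arrays. On the male array they ranged from 23.4 to 42.1 with a median of 35.6, and on the female array from 22.8 to 43.5 with a median of 33.2. The male spot was the brighter in 5 of the 10 positions and the female spot in the other 5. The mean difference was -0.0076, and its SD over the spots was 0.43, so at this brightness the pools could not be separated. The spots lay 2.14 to 2.82-fold above their local background on the male array, so the gene was dim.

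Aqp1, the water channel of the fluid-facing membrane, had the opposite pattern. Its 10 spots read 325 to 379 on the male array, with a median of 355. On the female array they read 204 to 241, with a median of 231. No female spot reached the lowest male spot, and all 10 positions were brighter on the male array. The difference was -0.61 with an SD of 0.045 over the spots, or 1.52-fold, and ran from -0.68 to -0.55. Among 3566 counted genes of like brightness, 37, Aqp1 included, had a difference as low or lower. With spike-in scaling Aqp1 gave 0.062, so the order of the pools turned although the spots within each array kept their spread. The female over male log2 signal of the spike-in probes had a mean of -0.70 and ranged from -0.81 to -0.53. Against a range that wide, the sign of 0.062 is not settled. Genes of red blood cells, which also use Aqp1, had a median difference of -0.51, and their part in the Aqp1 value was not tested.

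**Figure D2:**
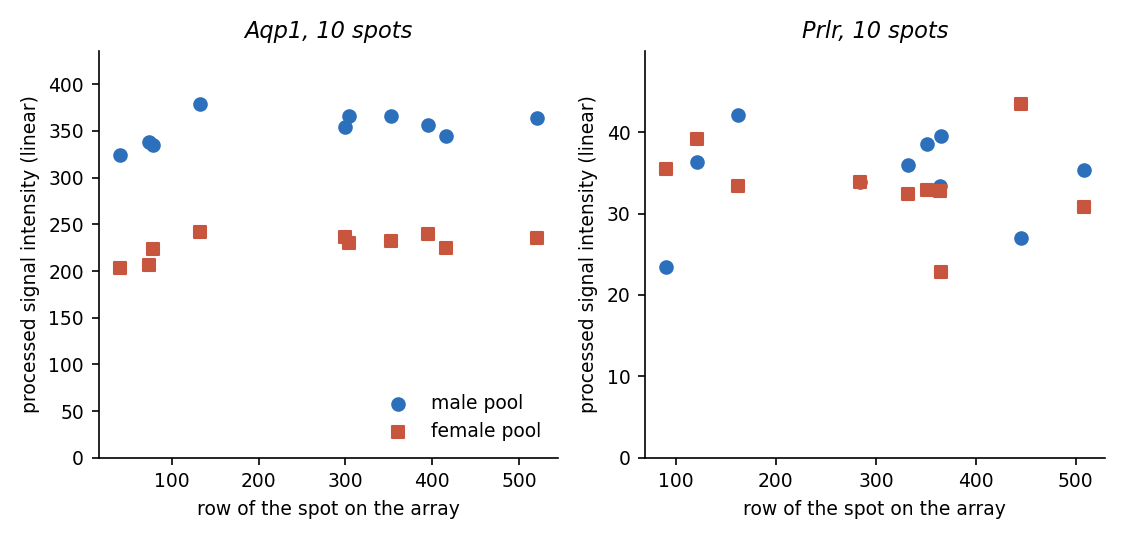
Processed signal intensity, on a linear scale from 0, of the 10 spots of Aqp1 (left) and of Prlr (right) against the row of the spot on the array, with circles for the male pool and squares for the female pool. The Aqp1 spots form separate bands at 325 to 379 and 204 to 241 over the whole height of the array, whereas the Prlr spots of both pools overlap between 22.8 and 43.5.

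Cldn2 had the largest difference of the 10 genes. Its counted probe, which starts at transcript base 2320 and is shown above, read 144 with the male pool and 39.3 with the female pool. The difference of -1.84, or 3.59-fold, compares with a spot SD of 0.15. Of 2836 genes of like brightness, 4 were as low or lower, a count that includes Cldn2 itself. Feature Extraction, the image analysis software, gave these single spots an error of 10.2% and 11.1% of the signal. That error was 10% even for the bright Ttr spot on both arrays, and it is not a spread over spots. The raw spots were 6.14 and 2.64 times their local background. With normexp background correction, which shrinks dim differences, the value was -1.12, and it was -1.17 with spike-in scaling. Normexp also brought Lbp to -0.64, Aqp1 to -0.50 and Folr1 to -0.069. The other Cldn2 probe, starting at base 804, was well above background on neither array, so it gives no fold.

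Clic6, a chloride intracellular channel gene, read 60.3 with the male pool and 55.7 with the female pool. Its difference of -0.089 was inside the spot SD of 0.15, and was -0.034 with normexp. Otx2 was the only transcription factor among the members. Its spot read 372 with the male pool and 282 with the female pool, differing by -0.37 against a spot SD of 0.089. Of the genes in its class, 3.39% were as low or lower, and Otx2 gave 0.30 with spike-in scaling.

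**Figure D3:**
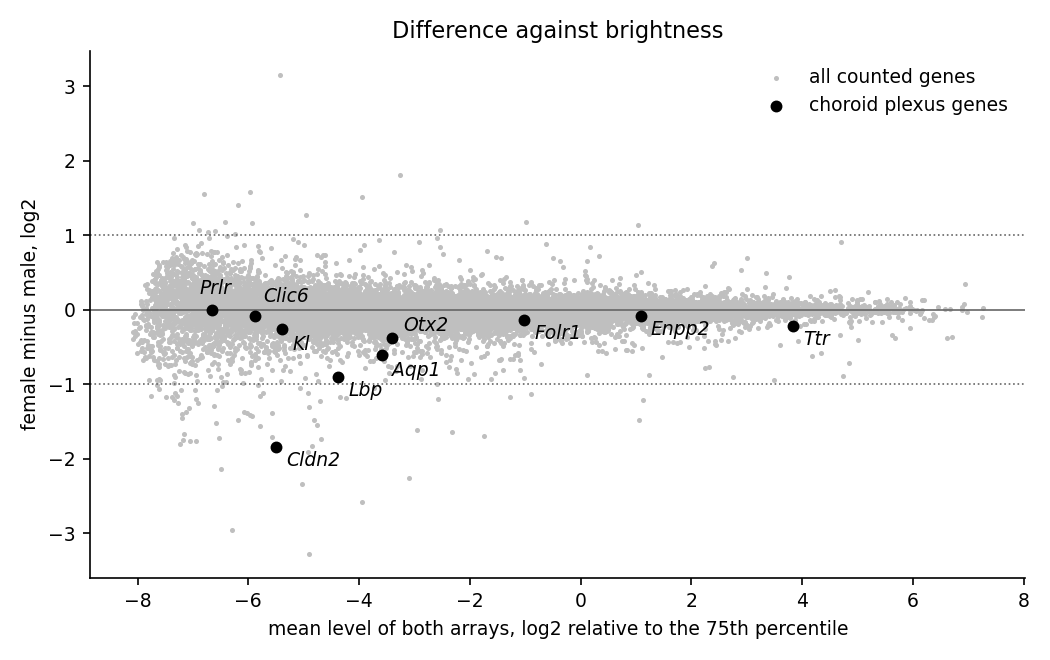
Each grey point is 1 of 15560 counted genes, with its mean level over both arrays (log2 relative to the 75th percentile) on the x axis and its female minus male difference (log2) on the y axis; black points are the choroid plexus genes and dotted lines mark 2-fold. Cldn2 at -1.84, Lbp at -0.91 and Aqp1 at -0.61 lie low among genes of like brightness, and Prlr, Clic6 and Enpp2 lie inside the grey cloud; spike-in scaling would move every point up by 0.67.

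The spread of the differences among the 10 genes was set beside the spot SD alone. Of the 45 pairs of members, 23 had differences further apart than 2 combined spot SDs, and 16 of these 23 pairs included Cldn2 or Lbp, each read from a single counted spot. Cldn2 and Ttr were 1.63 apart, with a combined spot SD of 0.17. Aqp1 and Ttr were 0.39 apart, with a combined spot SD of 0.11. These gaps do not depend on scaling each array by 1 factor. Since the spot SD leaves out rats and labelling, they are a description of these 2 arrays. The share of all pairs of counted genes that lie that far apart was not measured. The count of 23 in 45 pairs therefore does not set the members apart from other genes. Taken singly, 27.8% of all counted genes were higher in the male pool by more than 1 spot SD, and 20.3% in the female pool.

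The position of a spot on the array was examined, because the dim spots of 4 of 20 bands of array rows (over 16-fold below the 75th percentile) were often brighter on the male array. In these bands 6.51% to 12.9% of dim spots were 2-fold or more brighter there, against 1.65% in the median band. The single spots of Ttr, Enpp2 and Kl lie in them, as do 1 of the 10 Aqp1 spots and 2 of the 10 Prlr spots. Of these, only Kl and Prlr are that dim, and the share was not measured on spots as bright as the others. The spot of Lbp lies in the next band by that share, at 4.87%. Without the 4 bands the median of the 7 remaining genes was -0.37. Around the Cldn2 spot, 0 of 58 spots within 2-fold of its brightness in a block of 21 rows and 21 columns had a difference as low, and the count was 0 of 59 for Lbp, 0 of 72 for Otx2 and 0 of 16 for Ttr. It was 9 of 48 for Kl, 11 of 78 for Folr1, 8 of 63 for Enpp2 and 9 of 35 for Clic6.

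Other genes of the choroid plexus were taken from a list of 43, of which 41 were counted. In the male pool 28 of them were higher and 13 in the female pool. Their median was -0.054, which turned to 0.62 with spike-in scaling. None was 2-fold apart, and 17 were higher in the male pool by more than 1 spot SD against 9 in the female pool, where the shares of all counted genes were 27.8% and 20.3%. By role, 12 of 17 transport genes were higher in the male pool, with a median of -0.019. The same held for 7 of 8 genes of secreted proteins, with a median of -0.12, and 9 of the 16 remaining genes, with a median of -0.0053. The largest differences of the list were in both directions. Mfrp, a membrane frizzled-related protein gene, gave -0.59, the homeobox genes Msx1 and Lmx1a gave -0.45 and -0.42, and the insulin-like growth factor carrier Igfbp2 gave -0.43. Htr2c, the serotonin receptor gene for which plexus is a classic site, was higher in the female pool by 0.67 over 2 probes at 0.45 and 0.90. The probe at 0.90 read only 15.1 with the male and 27.6 with the female pool, where the spot SD was 0.31. The probe at 0.45 read 1509 and 2024. The dim Tmem72 was higher in the female pool by 0.38. Htr2c is also used by neurons. Slc13a4 was well above background on the female array only, and Rdh5 had no probe by that symbol.

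In that list 9 genes have 9 to 11 spots, and all 9 are given because of that spotting, after their values were seen. All 10 spots of Sostdc1, a secreted antagonist of bone morphogenetic proteins, were brighter on the male array. They had a median of 181 there and 139 on the female array, and a difference of -0.36 with a spot SD of 0.079. All 10 Msx1 spots ran the same way, at 7240 to 8463 on the male array and 5276 to 6109 on the female array, as did all 9 of the epithelial keratin gene Krt8, whose difference was -0.27. The 9 spots of Ecrg4, a secreted peptide precursor of plexus epithelium, ran the other way, at 3734 to 4178 on the male array and 4630 to 5170 on the female array, a difference of 0.33. The carbonic anhydrase gene Car2 gave -0.054, and the tight junction gene Cldn1, whose spots overlapped, gave -0.0050. The cotransporter gene Slc12a2 gave 0.086 over 2 probes that differed, at -0.027 and 0.20, and 8 of its 9 spots were brighter on the female array. Steap2 gave -0.0037 and Wfdc2 -0.032, each over 2 probes. These genes therefore lay on both sides of 0, and with spike-in scaling all those named here lie on the female side.

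Markers of other tissue near the NTS were compared in the same way, and their part in the differences of the choroid plexus genes was not tested. All 15 counted genes of meninges and fibroblasts were higher in the male pool, with a median of -0.29 and a summed level, the log2 of their added linear levels, of 4.68 in the male and 4.21 in the female pool. Col1a2, a chain of type I collagen, gave -0.90 and the retinoic acid synthesis gene Aldh1a2 -0.54. All 7 counted red blood cell genes were higher in the male pool, with a median of -0.51 and summed levels of 7.32 and 6.94. The anion exchanger gene Slc4a1 gave -0.85 and the haemoglobin chaperone gene Ahsp -0.81. Of 9 counted macrophage genes 7 were higher in the male pool, with a median of -0.11 and summed levels of 3.51 and 3.38, and Cd68 gave -0.63. Ependymal genes, of the ciliated cells that line the ventricle, were split: 6 of 12 were higher in each pool, with a median of 0.0010 and a summed level of 2.70 in both. A summed level weights the brightest probes of a list most. In these lists Epb42 and Mrc1 were well above background on the female array only, Spag6 on neither array, and every other gene with a probe was counted on both. With spike-in scaling each of these differences shifts by 0.67 towards the female pool.

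**Figure D4:**
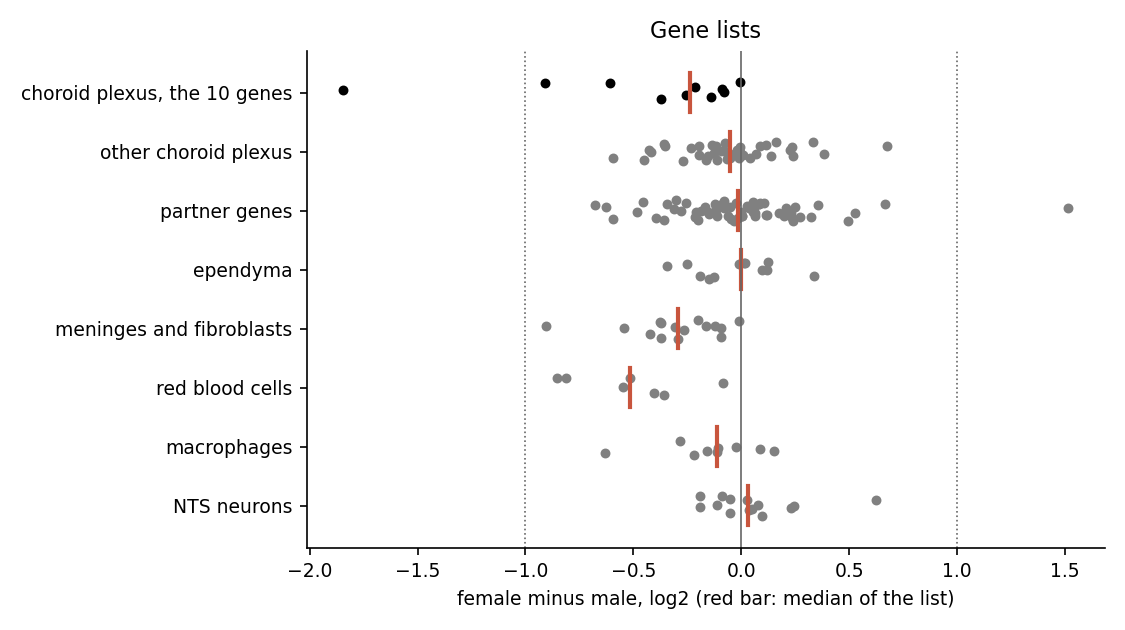
Female minus male difference (log2, x axis) of each counted gene in 8 lists, with black points for the 10 choroid plexus genes, grey points for the other lists and a red bar at each median; dotted lines mark 2-fold. The medians lie at -0.24 for the 10 genes, -0.054 for other choroid plexus genes, -0.29 for meninges and fibroblasts, -0.51 for red blood cells and 0.0010 for ependyma, and spike-in scaling moves every point right by 0.67.

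Genes related to the members by pathway or by gene family, called partner genes here, were taken from a list of 68. Whether each acts with its member was not tested. Of the list 63 were counted, with 33 higher in males, 30 higher in females and a median of -0.017. Of all counted genes, 54.3% were higher in the male pool. For Kl, 4 of 6 genes of fibroblast growth factor 23 signalling were higher in the male pool, with a median of -0.40. Among the 6, Fgf23, Fgfr4 and Klb were in the dimmest class, with a spot SD of 0.31. The spots of Fgf23 and Fgfr1 lay in the 4 bands of array rows described above. Galnt3, which glycosylates that hormone, gave -0.68, and the receptor gene Fgfr4 -0.63 with a spot SD of 0.31. For Folr1, 5 of 7 genes of folate transport and use were higher in the male pool, with a median of -0.15. For Prlr, 4 of 9 genes were higher in the male pool, with a median of 0.0035, and growth hormone, Gh1, gave 0.67. Prl itself was well above background on neither array.

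For Cldn2 the partner genes ran the other way: 7 of 10 genes of cell junctions were higher in females (median 0.15). The list was not limited to junctions of plexus epithelium, and the 7 include Cldn5 and Cldn11. Cdh1, the gene of the adhesion protein E-cadherin, read 132 with the male pool and 370 with the female pool, a difference of 1.52 or 2.86-fold. It was the only partner gene 2-fold or more apart, and 0.109% of all counted genes were that much higher in females. The scaffold gene Tjp1, chosen for its 11 spots after its values were seen, gave 0.35 over 2 probes at 0.32 and 0.39. All 11 spots were brighter on the female array, but their differences ran from 0.25 to 1.34. The SD over its repeated spots was 0.34, as large as the difference itself. For Aqp1, 2 of 4 other aquaporin genes were higher in each pool, with a median of -0.060.

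For Lbp, 2 of 4 genes of lipopolysaccharide recognition were higher in each pool, and the receptor gene Tlr4 gave 0.53. For Enpp2, 5 of 9 lysophosphatidic acid receptor and lipid phosphatase genes were higher in the male pool, between -0.15 and 0.24. For Ttr, 3 of 4 genes of thyroid hormone carriage and action were higher in the female pool. Alb, the albumin gene, was well above background on the male array only. Its male level was 3.37-fold above its female reading or the female array's lowest signal well above background, whichever was higher. For Clic6, 4 of 5 genes of its family were higher in the male pool, with a median of -0.080. For Otx2, 3 of 5 related factors were, with a median of -0.17. Crx and Thrb were well above background on the female array only, and Serpina7 had no probe by that symbol. Spike-in scaling moves the median of the partner genes to 0.65.

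Promoter windows from RefSeq, on build GRCr8 and covering 250 bases before to 50 after a gene's start, matched 4 of the 10 genes: Aqp1, Kl, Prlr with 2 entries, and Ttr. Lbp, Enpp2, Folr1, Clic6, Cldn2 and Otx2 had no entry. The windows were searched on both strands for TAATCC, the core sequence bound by Otx2, which none of the 5 windows held; it was in 2 of 39 windows of the other choroid plexus genes and in 7.17% of all 33469 windows.

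Other settings of scaling, background correction, filtering and array position were set beside these values. Spike-in scaling rested on 234 spots of 8 probes, whose mean female over male log2 signal was -0.70. The single probes ranged from -0.81 to -0.53. The scaling shifted all genes by 0.67. After it, 581 genes were past 2-fold towards the female pool and 17 towards the male pool, instead of 17 and 66. Under that scaling Cldn2 and Lbp alone stayed on the male side. Under every other setting that measured them, the differences of Cldn2, Lbp, Aqp1, Otx2, Kl, Ttr, Folr1, Clic6 and Enpp2 stayed below 0, whereas Prlr ran from -0.061 to 0.027.

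**Figure D5:**
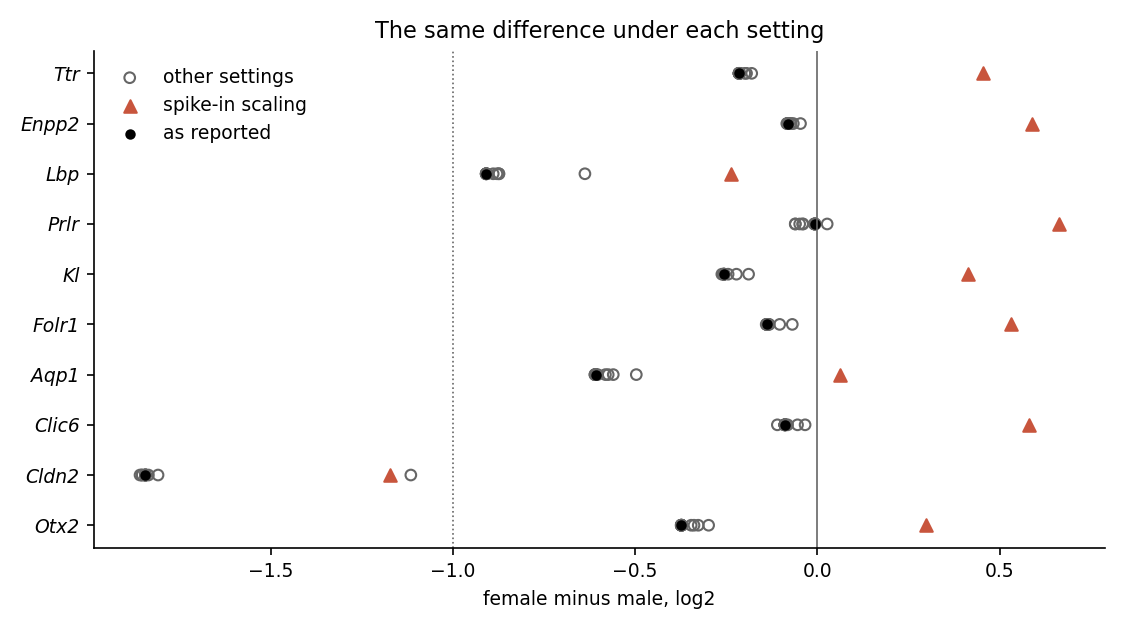
Female minus male difference (log2, x axis) of each choroid plexus gene under the reported setting (black), spike-in scaling (red triangle) and the other settings (open circles). Apart from Prlr, all circles lie left of 0; with spike-in scaling only Cldn2 at -1.17 and Lbp at -0.24 do, and the open circle of Cldn2 at -1.12 is normexp background correction.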

How the data were processed

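Total RNA was pooled per sex, and 150 ng of each pool was labelled with Cy3 and hybridised to an Agilent rat array, per the labels' protocols. The authors' deposited scanner files give intensity values per spot; the processed signal used here is background-subtracted by Feature Extraction, version 10.7.3.1 per the file headers, whereas the submitters' processing notes name version 9.1. The authors also deposited a table of linear, uncentred intensity values, which differ from the processed signal by 1 factor per array (0.0291 for the male and 0.0296 for the female array), hold 28 of the 29 member spots and have medians of 28.0 and 27.3.

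The log2 processed signal minus each array's 75th percentile over rat spots was averaged over the spots of a probe. Control spots and 430 spots with outlier marks were left out. For a gene with several probes, the median of its counted probes was taken, for each level and for the difference. Only probes well above background on both arrays were counted, giving 24530 probes and 15560 genes. A bound set the brighter array against the lowest signal well above background on the other, or the gene's own reading there if higher. Technical error is the pooled SD of the difference over spots of repeated probes, by brightness class. With 1 array per pool no test was run, and precision is limited by that number of arrays. Older gene names were matched through RefSeq tables of build GRCr8, which also gave the promoters.

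Alternatives were other scalings (quantile, median, loess, spike-in spots), normexp background correction in limma 3.58.1 under R 4.3.3 with an offset of 50, other filters, probe rules and fold thresholds, each member left out, and bands of array rows left out. The steps were tested on simulated data. The members and lists were chosen with earlier results of these data known. Genes named are all members, up to 6 of each other list with the largest absolute difference, every gene 2-fold or more apart, and genes past 2-fold by bound on 1 array; exceptions are stated, and some items are not reported here.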

Additional observations from a re-analysis of the deposited data

How the results depend on the processing

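Spike-in scaling turned Aqp1 to 0.062, Enpp2 to 0.59, Folr1 to 0.53, Kl to 0.41, Otx2 to 0.30, Ttr to 0.46, Clic6 to 0.58 and Prlr to 0.66. It also turned the median of the 10 genes to 0.43 and that of the other choroid plexus genes to 0.62, moved the median of the partner genes to 0.65, and left 2 of 10 genes higher in the male pool. Only bright probes left 4 genes, 4 of them higher in the male pool and 0 of them 2-fold apart, with a median of -0.18. Without the 4 bands of array rows the median of the 7 remaining genes was -0.37 and that of the other choroid plexus genes -0.019. Without 5 bands, an alternative chosen after seeing the data, 6 genes remained, 6 of them higher in the male pool. Scaling by the median gave -0.019 for the other choroid plexus genes and 0.018 for the partner genes. Taking the brightest probe gave -0.0073 for the other choroid plexus genes. A threshold of 1.5-fold gave 3 genes. Leaving out each of the 10 genes in turn gave medians from -0.26 to -0.21. Beyond fewer genes being counted under the stricter filters and without bands, the cause of these moves was not tested. No paired analysis was possible because each group has 1 sample, and leaving out a replicate was not possible for the same reason. Signal over background limits Prlr, whose spots were at most 2.84 times their local background, and Cldn2, whose spot was 2.64 times it on the female array.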
